A study of Citrus sinensis with 6 samples.

Results

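The abscisic acid 8'-hydroxylase genes of sweet orange were described in leaves under salt stress. They were the genes whose molecular function terms in the deposited annotation include (+)-abscisic acid 8'-hydroxylase activity, and the rule found 8 of the 29875 listed genes. RNA was sequenced from leaves of *Citrus sinensis* seedlings raised from seed in tissue culture. The NaCl group (3 libraries) came from seedlings exposed to 2% NaCl for 14 days, and the control group (3 libraries) from seedlings kept for 14 days without added salt. The methods assign several seedlings to each biological replicate and give Murashige and Skoog medium for the controls. Tissue is labelled leaf throughout, but titles name leaf for NaCl samples and leaf blades with sterile water for control samples, so a difference in the part sampled cannot be told apart from an effect of salt. The treatment field of all 6 samples names a boron treatment, whereas their titles and treatment labels name NaCl or its absence, which was the grouping used here.

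Abscisic acid is the hormone by which plants close stomata and slow growth when water is short or salt is high. Its level is set by synthesis from carotenoids, by conjugation to glucose, and by oxidation. In Arabidopsis the main oxidative step is hydroxylation at the 8' position by cytochrome P450 enzymes of the CYP707A family, and the product is converted to phaseic acid, which has little hormone activity. CYP707A genes of Arabidopsis are known for lowering abscisic acid when seeds leave dormancy and when leaves recover from water deficit, and their transcripts respond to the hormone itself.

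The annotation of the 8 genes was not uniform. All 8 carried the same molecular function terms, and all 8 also carried the process term for brassinosteroid biosynthesis, although 0 of the 8 stood among the 11 genes of the KEGG pathway of that name. Cs_ont_3g007500 and Cs_ont_6g003200 carried the process terms for abscisic acid catabolism and for the response to water deprivation. Cs_ont_8g002260 carried abscisic acid metabolism and release of seed from dormancy. The other 5 genes, Cs_ont_1g025030, Cs_ont_1g028210, Cs_ont_3g005090, Cs_ont_3g027130 and Cs_ont_8g024610, had no abscisic acid process term. In KEGG, 5 genes were placed in carotenoid biosynthesis, the pathway map that contains abscisic acid turnover (Cs_ont_1g025030, Cs_ont_3g005090, Cs_ont_6g003200, Cs_ont_8g002260 and Cs_ont_8g024610), and 3 were placed in no pathway. Only Cs_ont_6g003200 and Cs_ont_8g002260 therefore had an abscisic acid process term together with that pathway. The name of the group is used below as an annotation, since none of the files used here holds a sequence or an enzyme assay for these genes.

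Expression was deposited as FPKM, fragments scaled to gene length and to library total, which allows levels of different genes to be set side by side. The FPKM values of every gene were ratios of whole reads, and the recovered totals were 17307079 to 19520980 reads in NaCl libraries and 14325408 to 17558452 reads in control libraries. A test by limma on log2(FPKM + 1) was run over the 17285 genes that reached 0.5 FPKM in at least 3 libraries. Control replicate 2 stood apart from its group: its score on the first principal component was -9.50, against 25.6 to 51.7 for the NaCl libraries and -51.5 and -66.3 for the other control libraries. Genes of the photosynthetic antenna proteins, which define green leaf tissue, summed to 2298 to 3657 FPKM in NaCl libraries and 1558 to 3097 FPKM in control libraries, and 2 of the 17 were at 0 in every library. Summed FPKM of lignin genes was 563 to 756 in NaCl libraries and 319 to 462 in control libraries, that of chlorophyll breakdown genes 185 to 259 in NaCl libraries and 114 to 159 in control libraries, and that of cutin and wax genes 237 to 261 in NaCl libraries and 265 to 301 in control libraries. Secondary cell wall genes, a second list for vascular tissue, overlapped, with 182 to 255 FPKM in NaCl libraries and 178 to 223 FPKM in control libraries. Of their tested genes 11 had positive and 11 negative log2 fold changes. Nutrient reservoir genes summed to 138 to 149 FPKM in NaCl libraries and 94.1 to 116 FPKM in control libraries. Of the tested genes in these lists, 0 passed an adjusted p of 0.05 by limma, and the part of leaf composition in the results below was not tested. In leaves, fewer cells of a type and less RNA per cell cannot be told apart.

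The group was dominated by 1 gene. Cs_ont_6g003200 had 141, 112 and 171 FPKM in NaCl replicates 1 to 3, against 97.5, 309 and 164 FPKM in control replicates 1 to 3. Control replicate 2 was the highest and control replicate 1 the lowest of the 6 libraries, and all NaCl libraries lay between them. The means were 141 ± 29.4 FPKM in NaCl leaves and 190 ± 108 FPKM in control leaves (SD, n = 3 each). This gene alone made up 78.4% to 89.0% of the summed FPKM of the 8 genes in NaCl libraries and 84.2% to 93.9% in control libraries. Its mean level exceeded that of 97.4% of the tested genes.

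Cs_ont_3g005090 was second in level in each of the 6 libraries. It had 22.9, 6.26 and 19.7 FPKM in NaCl replicates 1 to 3, against 6.78, 9.06 and 17.6 FPKM in control replicates 1 to 3. NaCl replicate 2 was the lowest library of all, below every control library, whereas the other NaCl libraries were above every control library. The means were 16.3 ± 8.81 FPKM in NaCl leaves and 11.1 ± 5.69 FPKM in control leaves (SD, n = 3 each).

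Below these, 4 genes had means of 1 to 5 FPKM, and their order changed from library to library. Cs_ont_8g002260, the gene annotated with release of seed from dormancy, had 8.66, 1.58 and 3.42 FPKM in NaCl replicates 1 to 3, against 1.68, 4.84 and 3.68 FPKM in control replicates 1 to 3. It spanned the whole range within the NaCl group, where replicate 1 was 5.47 times replicate 2. Cs_ont_3g027130 had 3.47, 1.69 and 5.63 FPKM in NaCl replicates, against 3.99, 1.34 and 3.96 FPKM in control replicates. These values rest on few reads, 9 to 33 in NaCl libraries and 6 to 21 in control libraries. Its recovered length was 300 bases, whereas the other 7 genes had 1140 to 2590 bases. Such a length is short for a complete cytochrome P450 gene. Reads and length were, however, recovered together as the smallest whole numbers that fit. A common multiple of both would give the same FPKM.

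Cs_ont_3g007500, annotated with abscisic acid catabolism and water deprivation, was even within the NaCl group and uneven among controls. It had 1.96, 2.03 and 2.34 FPKM in NaCl replicates 1 to 3, against 1.22, 2.23 and 4.22 FPKM in control replicates 1 to 3. Both extremes were control libraries. Cs_ont_8g024610 had 1.18, 1.75 and 1.30 FPKM in NaCl replicates, against 0.526, 1.86 and 0.815 FPKM in control replicates. All NaCl libraries were above control replicates 1 and 3, and control replicate 2 was above all of them. The means of these 4 genes over the 6 libraries were 3.98, 3.35, 2.33 and 1.24 FPKM in the order in which they are given here, and neighbours in that order overlapped in their library values.

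The remaining 2 genes were near the detection limit and did not reach the minimum for the test. Cs_ont_1g025030 had 8, 8 and 3 reads in NaCl replicates 1 to 3 (0.405, 0.395 and 0.135 FPKM), against 4, 7 and 8 reads in control replicates 1 to 3 (0.200, 0.412 and 0.490 FPKM). The sum was 19 reads in each group. Cs_ont_1g028210 had 4, 2 and 2 reads in NaCl replicates (0.169, 0.0824 and 0.0750 FPKM), against 3, 10 and 3 reads in control replicates (0.125, 0.492 and 0.153 FPKM). Of its 16 control reads, 10 came from control replicate 2. No difference was detectable in either gene at this depth.

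**Figure D1:**
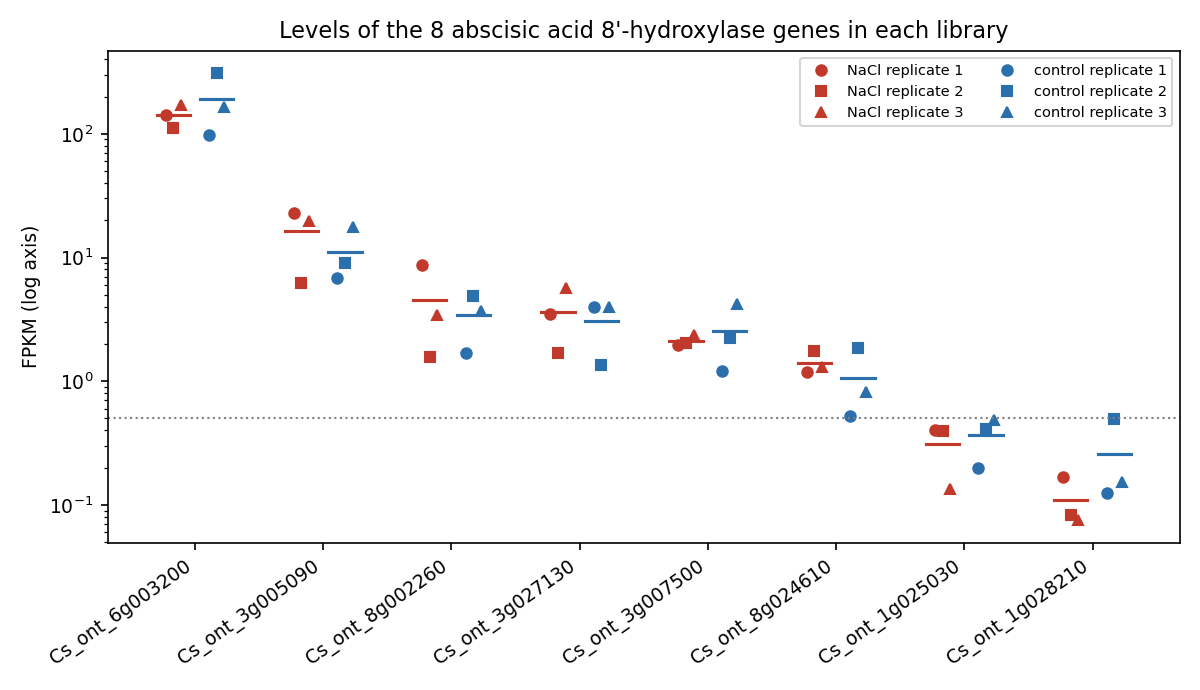
FPKM on a log axis of the 8 abscisic acid 8'-hydroxylase genes, ordered by their mean, with NaCl libraries left (red) and control libraries right (blue); symbols mark replicates, short bars group means, and the dotted line 0.5 FPKM. Cs_ont_6g003200 lies above all others in every library, Cs_ont_1g025030 and Cs_ont_1g028210 lie below the line, and for each gene the groups overlap.

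To ask whether transcripts for abscisic acid breakdown differed after 14 days of salt, NaCl leaves were compared with control leaves for each gene. Calls required both a Benjamini-Hochberg adjusted p no larger than 0.05 and a log2 fold change of 1 or more in either direction. Of the 6 genes tested, 0 were called by limma, where 2.73% of the 17285 tested genes were. The adjusted p alone was passed by 0 of 6, against 3.23% of the tested genes. At an unadjusted p of 0.05 the count was also 0 of 6 by limma, and 0 of 6 by limma with voom weights on the recovered reads, against 30.3% of all tested genes by limma. For 0 of the 6 genes did the groups separate, whereas they did for 36.1% of the tested genes. The exact two-sided permutation test of the difference of means gave p = 0.3 to 1.0 over the 8 genes, where 3 against 3 libraries cannot go below p = 0.1.

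On the log2(FPKM + 1) scale, which understates changes of low genes, the largest difference was that of Cs_ont_3g005090, 0.43 (standard error 0.52, 95% interval -0.80 to 1.67, adjusted p = 0.586 from limma). Cs_ont_6g003200 had -0.29 (standard error 0.41, 95% interval -1.28 to 0.69, adjusted p = 0.646 from limma). Cs_ont_8g024610 had 0.27 (95% interval -0.39 to 0.93), Cs_ont_8g002260 0.20 (-1.04 to 1.43), Cs_ont_3g027130 0.15 (-0.87 to 1.18) and Cs_ont_3g007500 -0.11 (-0.87 to 0.66), with adjusted p from 0.531 to 0.836 by limma. The median over the 6 genes was 0.18, the same as the median of 0.18 over all tested genes, and 3 of the 6 lay above and 3 below that median. Relative to it, Cs_ont_6g003200 was at -0.48 and Cs_ont_3g005090 at 0.25.

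These intervals bound the changes to different degrees. On this scale, an upper limit below 1 was found for Cs_ont_6g003200, Cs_ont_3g007500 and Cs_ont_8g024610, and a lower limit above -1 for Cs_ont_3g005090, Cs_ont_3g027130, Cs_ont_3g007500 and Cs_ont_8g024610. For Cs_ont_8g002260 the interval reached past 1 in both directions. Several of these limits depended on the pseudocount. With 0.1 in place of 1, the interval of Cs_ont_3g027130 was -1.17 to 1.58 and that of Cs_ont_3g007500 -1.18 to 0.97. Cs_ont_8g024610 then had 0.52 (95% interval -0.67 to 1.71), and 0.57 with a pseudocount of 0.01. An upper limit below 1 remained for Cs_ont_6g003200 and a lower limit above -1 for Cs_ont_3g005090 and Cs_ont_8g024610 at both smaller pseudocounts. These limits need not hold in other settings. Cs_ont_3g005090 had 0.34 (standard error 0.57) with voom weights and 0.22 (standard error 0.60) without NaCl replicate 3. Without NaCl replicate 2 it had 0.97 (standard error 0.37). The intervals are not adjusted for the number of genes.

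**Figure D2:**
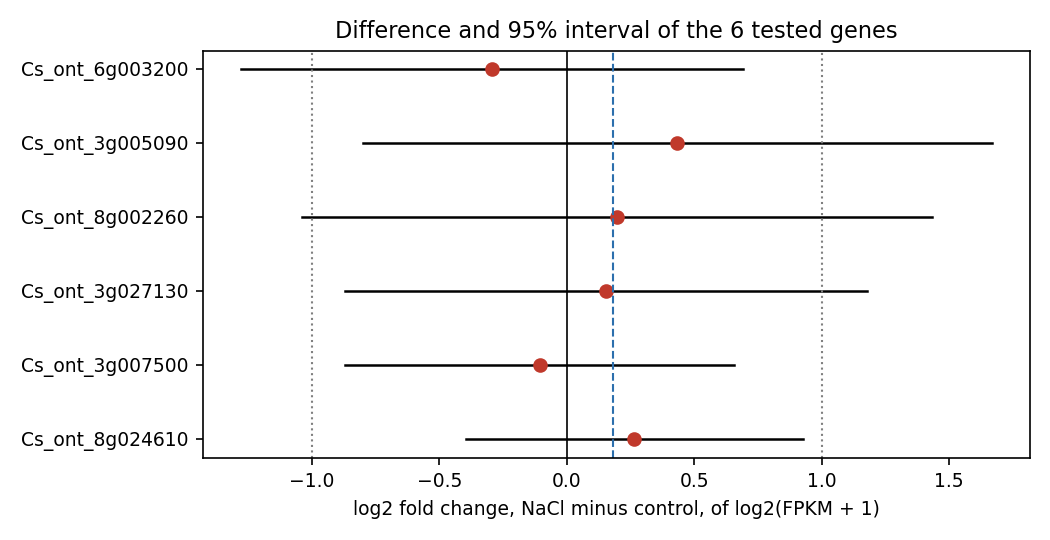
Log2 fold change (NaCl minus control, of log2(FPKM + 1)) of the 6 tested genes as points, with 95% intervals from limma as lines; dotted lines mark an absolute value of 1 and the dashed line the median of all tested genes, 0.18. Every interval includes 0.

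Leaving out a single library turned the sign for 4 of the 6 tested genes. Without control replicate 2 the log2 fold change of Cs_ont_6g003200 turned to 0.13 (adjusted p = 0.757 from limma), in a setting in which 4219 of the 17285 genes passed the adjusted p. Its range over the 6 fits that each left out 1 library was -0.70 to 0.13. Cs_ont_3g027130 was also negative without control replicate 2 (-0.21) and without NaCl replicate 3 (-0.16). Cs_ont_8g002260 was negative without NaCl replicate 1 (-0.31) and without control replicate 1 (-0.12), and Cs_ont_3g007500 was positive without control replicate 3 (0.22). Cs_ont_3g005090 and Cs_ont_8g024610 stayed positive in each of these fits, with ranges of 0.11 to 0.97 and 0.07 to 0.53. Their lowest values came without NaCl replicate 1 for Cs_ont_3g005090 and without control replicate 1 for Cs_ont_8g024610. The value of Cs_ont_3g005090 without NaCl replicate 2 was 0.97 (adjusted p = 0.158 from limma), the one fit in which a member of the group reached an unadjusted p of 0.05. That of Cs_ont_8g024610 without control replicate 2 was 0.53 (adjusted p = 0.121 from limma).

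The libraries with extreme values differed between genes. Control replicate 2 was the highest library for 3 of the 8 genes (Cs_ont_6g003200, Cs_ont_8g024610 and Cs_ont_1g028210) and the lowest for 1, Cs_ont_3g027130. Control replicate 1 was the lowest for 3 genes (Cs_ont_6g003200, Cs_ont_3g007500 and Cs_ont_8g024610). NaCl replicate 2 was the lowest for Cs_ont_3g005090 and Cs_ont_8g002260, and NaCl replicate 1 the highest for both. Over the 6 libraries, Pearson's r of log2(FPKM + 1) between pairs of the 6 tested genes ranged from -0.68 (Cs_ont_3g027130 with Cs_ont_8g024610) to 0.76 (Cs_ont_3g005090 with Cs_ont_8g002260). These correlations describe the same 6 libraries, which differ in depth and in treatment for all genes alike.

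**Figure D3:**
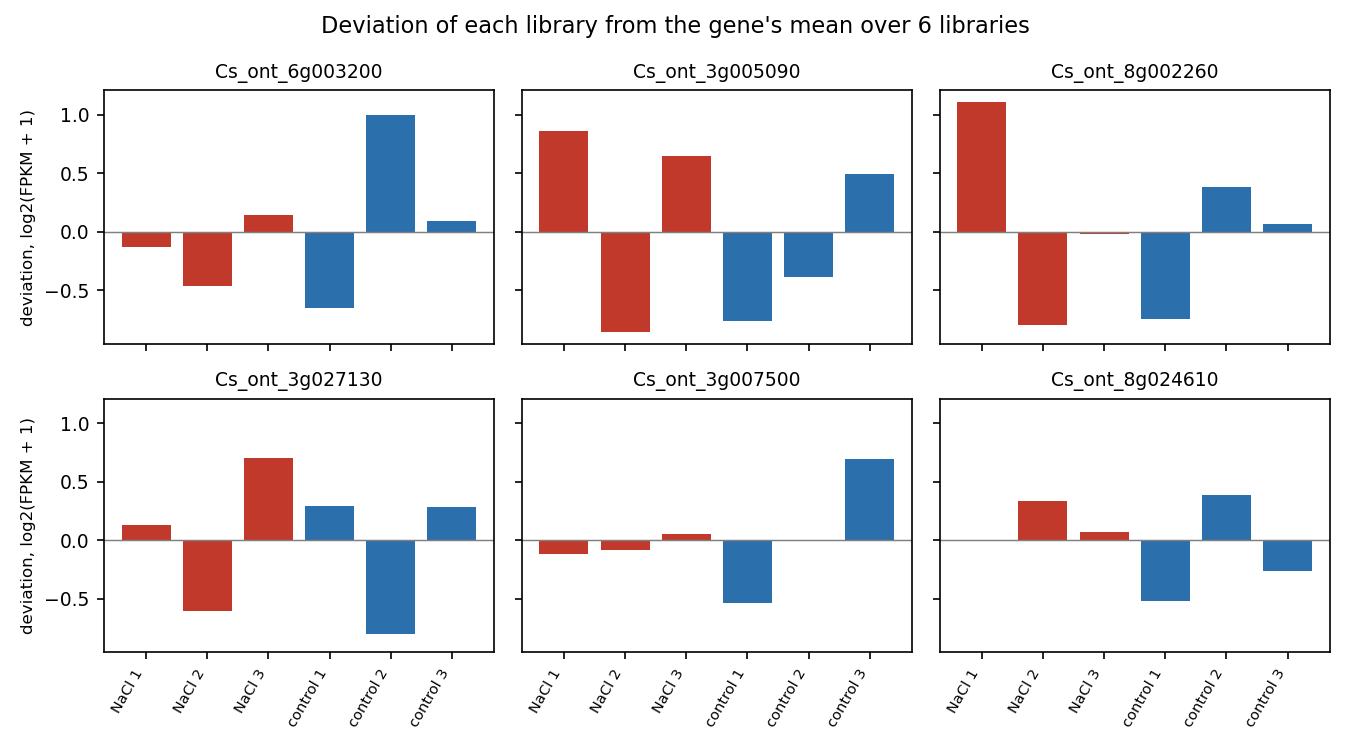
Deviation of each library from the mean of the gene over 6 libraries, in log2(FPKM + 1), for the 6 tested genes, with NaCl replicates 1 to 3 in red on the left and control replicates 1 to 3 in blue on the right of each panel. For each of the 6 genes, bars of both signs occur within the NaCl group and within the control group.

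The spread between replicates was wide in most of these genes compared with other genes of the same libraries. The standard deviation within groups, on the log2(FPKM + 1) scale, was 0.80 for Cs_ont_3g005090, 0.79 for Cs_ont_8g002260, 0.64 for Cs_ont_3g027130 and 0.62 for Cs_ont_6g003200, against a median of 0.28 and an upper quartile of 0.44 over all 17285 tested genes. These 4 values exceeded those of 94.6%, 94.3%, 89.6% and 88.8% of the tested genes in that order. Cs_ont_3g007500 (0.44) and Cs_ont_8g024610 (0.35) exceeded 75.9% and 64.6%.

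The size of the counting error relative to the spread differed between genes. For Cs_ont_6g003200 the counting error of the lowest library was 1.5% of its value, whereas the coefficient of variation was 20.8% in NaCl leaves and 56.9% in control leaves. For Cs_ont_3g005090 these values were 7.0%, 54.2% and 51.1%, and for Cs_ont_8g002260 they were 12.5%, 80.6% and 47.1%. For Cs_ont_3g027130 the counting error of the lowest library, control replicate 2 with 6 reads, was 40.8%. The coefficient of variation was 55.0% in NaCl leaves and 49.0% in control leaves. Its other libraries held 9 to 33 reads, so their counting error was smaller than 40.8%. For Cs_ont_3g007500 the lowest library was control replicate 1 with 29 reads, a counting error of 18.6%, against 59.8% observed in control leaves. Its NaCl libraries held 46 to 62 reads, so 18.6% overstates their counting error beside the observed 9.61%. For Cs_ont_8g024610 the lowest library was also control replicate 1, with 19 reads, a counting error of 22.9%, against 65.8% in control leaves. Its NaCl libraries held 42 to 64 reads, so 22.9% overstates their counting error beside the observed 21.4%. Counting error as given here treats reads as independent molecules and covers counting alone.

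**Figure D4:**
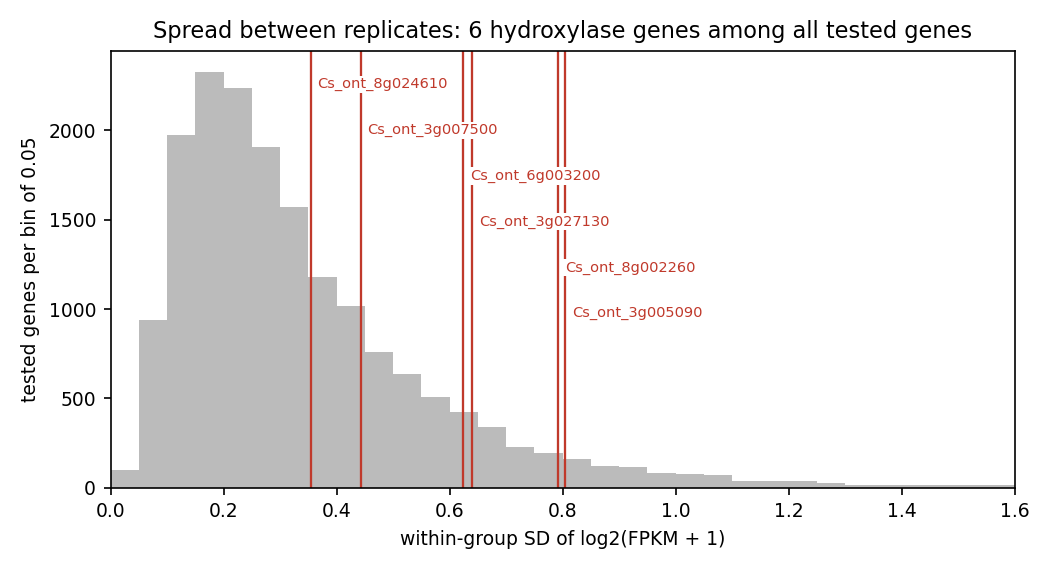
Number of tested genes (grey bars, bins of 0.05) by their standard deviation within groups of log2(FPKM + 1), with the 6 tested hydroxylase genes as red lines; the axis ends at 1.6. Cs_ont_8g002260 and Cs_ont_3g005090 lie in the right tail at 0.79 and 0.80.

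The genes whose levels followed those of the hydroxylase genes most closely over the 6 libraries were mostly without a function term. For Cs_ont_6g003200 the 3 closest genes had r of 0.998, 0.977 and 0.977, and the third is annotated with xenobiotic transmembrane transport. The closest gene to Cs_ont_3g005090 (r = 0.995) is annotated with ubiquitin-like protein ligase activity. For Cs_ont_3g007500 the closest gene (r = 0.989) is annotated with transporter activity, and the second (r = 0.983) is placed in phenylpropanoid and flavonoid biosynthesis. The closest gene to Cs_ont_3g027130 (r = 0.986) also carries ubiquitin-like protein ligase activity, and the second (r = 0.983) monooxygenase activity. For Cs_ont_8g002260 the 3 closest genes (r = 0.992, 0.990 and 0.989) had no function term, and for Cs_ont_8g024610 the closest (r = 0.995) was an ester hydrolase. With 6 libraries such values are common, as 22 to 568 tested genes had r above 0.9 with each of these genes.

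The breakdown genes were set beside the other steps of abscisic acid metabolism. Among enzymes of synthesis, 9-cis-epoxycarotenoid dioxygenase cleaves the carotenoid precursor and is commonly taken as the limiting step. Of its 5 genes, 2 were tested, 2 were at 0 in every library, and 0 passed an adjusted p of 0.05, where 1.31% of all tested genes passed as higher and 1.93% as lower. The summed FPKM of the 5 genes was 56.1, 14.4 and 13.9 in NaCl replicates 1 to 3, against 35.2, 22.4 and 49.6 in control replicates 1 to 3, and the groups overlapped. The log2 fold changes of the 2 tested genes were -0.68 and -0.51 (adjusted p = 0.281 and 0.615 from limma). The summed FPKM of the 8 hydroxylase genes in the same libraries was 179, 126 and 203 in NaCl replicates, against 112, 330 and 195 in control replicates.

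Of 4 tested zeaxanthin epoxidase genes and 1 tested xanthoxin dehydrogenase gene, which act before and after the cleavage, 0 passed, and their log2 fold changes ranged from -0.07 to 0.29. The value of 0.29 had a standard error of 1.01 and bounds the change little. That zeaxanthin epoxidase gene had 2.49, 8.36 and 5.19 FPKM in NaCl replicates, against 18.0, 4.85 and 0 FPKM in control replicates. Abscisic aldehyde oxidase catalyses the last step of synthesis, and 1 of its 3 tested genes passed the adjusted p as higher in NaCl leaves. That gene had 61.0, 44.6 and 64.6 FPKM in NaCl replicates, against 30.2, 28.6 and 27.8 FPKM in control replicates, so that the groups separated. By limma the difference was 0.93 on the log2 scale with a standard error of 0.17 (adjusted p = 0.0453). The gene was not called, since a call also required a log2 fold change of 1. It passed the adjusted p in 4 of 14 alternative settings, with values from 0.0283 to 0.197. It did not pass without NaCl replicate 1 or 3 or control replicate 1 or 3 (adjusted p from 0.0917 to 0.197 by limma).

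Conjugation to glucose is the other route by which abscisic acid is inactivated. The 1 gene annotated as abscisic acid glucosyltransferase also carries quercetin glucosyltransferase terms. It had 18.1, 16.7 and 29.7 FPKM in NaCl replicates, against 13.6, 8.02 and 10.9 FPKM in control replicates. The groups separated, but the test was not passed (0.91 on the log2 scale with a standard error of 0.27, adjusted p = 0.0954 by limma). Besides the 2 hydroxylase genes, 3 genes carried the process term for abscisic acid catabolism, and of the 2 tested 0 passed. The more abundant of these, which carries a quercetin glucosyltransferase term, had 254, 54.6 and 283 FPKM in NaCl replicates, against 153, 142 and 178 FPKM in control replicates. NaCl replicate 2 was its lowest library, as it was for Cs_ont_3g005090 and Cs_ont_8g002260.

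In perception, 1 of 7 tested genes with the abscisic acid binding term, the function of the hormone receptors, passed the adjusted p as higher in NaCl leaves. Over all tested genes, 1.31% passed as higher and 1.93% as lower. The receptor gene differed by 0.95 on the log2 scale (adjusted p = 0.0496 by limma), below the 1 required for a call. It passed the adjusted p in 2 of 14 alternative settings. Without control replicate 2, where 24.4% of all tested genes passed, the list had 3 higher genes. Of 8 tested genes of abscisic acid transport, 1 passed as lower, with 5.46, 4.03 and 4.74 FPKM in NaCl replicates, against 10.5, 11.7 and 14.8 FPKM in control replicates (-1.21 on the log2 scale with a standard error of 0.19, adjusted p = 0.0390 by limma). It passed in 7 of 14 alternative settings. It no longer passed when control replicate 1, control replicate 3 or any 1 of the NaCl replicates was left out (adjusted p from 0.0596 to 0.188 by limma). Of 167 tested genes of the response to abscisic acid, 3 passed as higher and 0 as lower, where 1.31% and 1.93% of all tested genes did, and their median log2 fold change was 0.06, against 0.18 over all tested genes. The 93 positive and 74 negative values of this list became 77 and 90 after quantile normalization. Without control replicate 2 the passing genes of this list numbered 29 higher and 20 lower, 29.3% of the list against 24.4% of all tested genes in that fit, and without control replicate 1, control replicate 3 or NaCl replicate 3 they numbered 0.

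Other genes with the monooxygenase term were taken as 1 list and were not sorted by pathway. Of 110 tested, 5 were higher and 6 lower at the adjusted p (10.0%), where 3.23% of all tested genes passed. The log2 fold changes of these 110 ranged from -3.41 to 2.62, with a median of 0.23. Of 36 other tested genes of carotenoid biosynthesis, 2 passed as higher, among them the abscisic aldehyde oxidase gene above, and 1 as lower (8.33%). The median of the 36 was 0.32. Both counts moved with single libraries: without control replicate 2 they were 13 higher and 11 lower for monooxygenases (21.8%) and 9 higher and 3 lower for carotenoid genes (33.3%), where 24.4% of all tested genes passed, and without control replicate 1, control replicate 3 or NaCl replicate 3 they were 0. The 6 hydroxylase genes ranged from -0.29 to 0.43. Whether they differed from these lists was not tested.

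**Figure D5:**
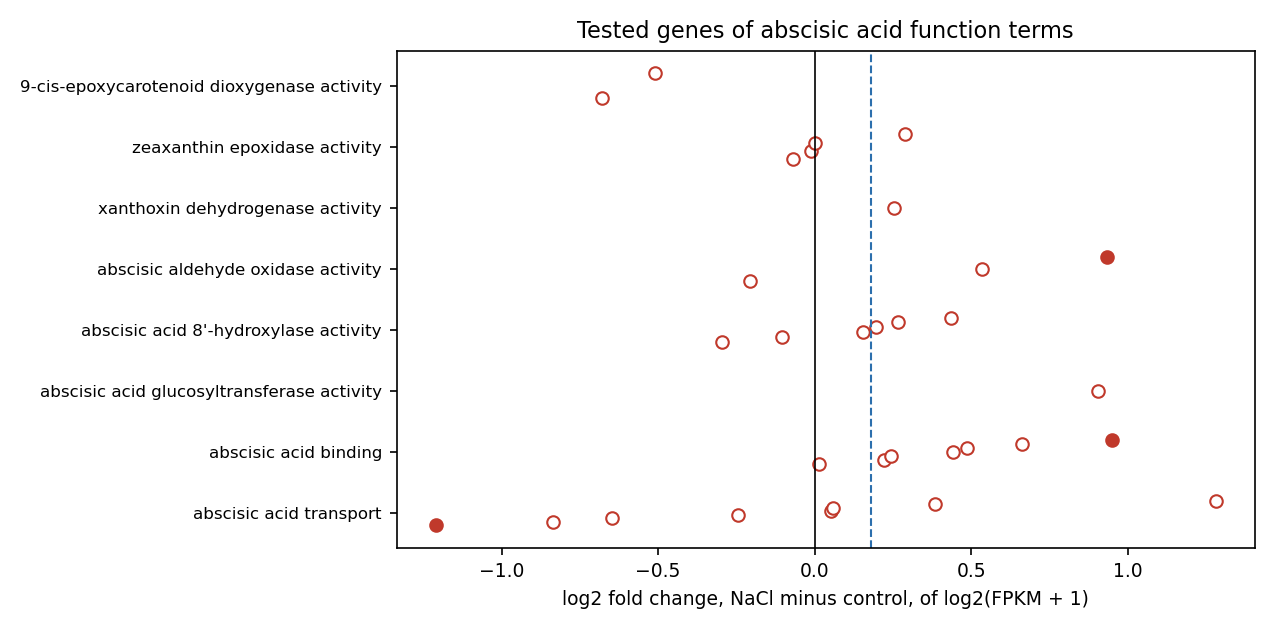
Log2 fold change (NaCl minus control, of log2(FPKM + 1)) of each tested gene of abscisic acid synthesis, 8'-hydroxylation, conjugation, binding and transport, 1 row per function term; filled points passed an adjusted p of 0.05 from limma, and the dashed line marks the median of all tested genes, 0.18. The 6 hydroxylase points are open and lie between -0.29 and 0.43.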

How the data were processed

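RNA-seq of 3 NaCl and 3 control leaf libraries was analysed. The authors aligned reads with HISAT2 and deposited FPKM values per gene and library; featureCounts is named in the methods and HTSeq in the submitters' processing notes. The authors' deposited table also holds group means of FPKM and their own log2 fold changes and p-values, which were not used. The gene identifiers (Cs_ont series) matched 0 entries of the RefSeq table of assembly DVS_A1.0, so no names, coordinates or sequences are given. Process terms of 3183 genes and function terms of 12 were not used here, so lists built on such terms may lack genes.

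Whole reads were recovered from ratios of FPKM for 100% of the 23073 genes above 0 (relative tolerance 1e-09), with counted length and library total. The smallest whole numbers that fit were taken, so reads and length of a gene could be a common multiple of those given. The 17285 genes that reached 0.5 FPKM in 3 or more libraries entered limma 3.58.1 (R 4.3.3, with a mean-variance trend) on log2(FPKM + 1), a pseudocount of 1, with Benjamini-Hochberg adjustment over all of them. The test was checked on simulated data. Python 3.11.15 with pandas 2.3.3 handled the tables. Named genes were all members, up to 2 genes with the lowest adjusted p of each other list, given by function term, and the 3 most alike in profile. The members and lists were chosen with earlier results of these data known. A list of phosphatases could not be built, since the annotation has no orthology column. Other genes with the monooxygenase term, with or without the heme term, were added as a list after the annotation was seen.

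Alternatives were pseudocounts of 0.1 and 0.01, no filter, a minimum of 1 FPKM, scaling by quantiles or by the upper quartile, limma with voom weights on recovered reads, the replicate number as a block, and each library left out. No shared deviation was seen between samples with the same replicate number (correlation of deviations -0.03, 0.03 and -0.07 for replicates 1 to 3). These values cannot show whether such samples were handled together, and the titles do not say. The methods describe replicates as biological. The p-values set each group difference against the spread between these libraries. How reads shared by similar P450 genes were assigned was not tested.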

Additional observations from a re-analysis of the deposited data

How the results depend on the processing

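Of the 6 tested hydroxylase genes, 0 were called in any of the 14 alternatives. The direction of each gene was kept under other pseudocounts, filters, scalings, voom weights and the replicate block, and turned only when a library was left out: Cs_ont_6g003200 to 0.13 and Cs_ont_3g027130 to -0.21 without control replicate 2, Cs_ont_3g027130 to -0.16 without NaCl replicate 3, Cs_ont_8g002260 to -0.31 without NaCl replicate 1 and to -0.12 without control replicate 1, and Cs_ont_3g007500 to 0.22 without control replicate 3. With 1 library left out, values ran from -0.40 to 0.22 for Cs_ont_3g007500, -0.21 to 0.49 for Cs_ont_3g027130, -0.70 to 0.13 for Cs_ont_6g003200, -0.31 to 0.64 for Cs_ont_8g002260, 0.11 to 0.97 for Cs_ont_3g005090 and 0.07 to 0.53 for Cs_ont_8g024610. Over all 17285 genes, 472 were called, and 308 with a pseudocount of 0.01, 40 with no filter, 152 with voom weights and 7 with the replicate number as a block. Whether samples with the same replicate number were handled together is not stated in the titles. The range with 1 library left out was 0 (without control replicate 3) to 1800 (without control replicate 2). Of the called genes 169 were higher and 303 lower, 124 and 347 after quantile normalization, 85 and 275 with upper-quartile scaling and 35 and 117 with voom weights. Of 192 tested genes of the other abscisic acid lists, 4 were called, and 2 with no filter, 2 with upper-quartile scaling, 0 with the replicate block and 0 to 25 with 1 library left out. Leaving out a library also leaves fewer samples, and the cause of these shifts was not tested. Depth limits Cs_ont_1g025030 and Cs_ont_1g028210, with 19 and 8 reads over the NaCl libraries and 19 and 16 over the control libraries.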
